A study of Canis lupus familiaris with 13 samples.

Results

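The genes described here are 44 cell division genes, chosen by name from a list of genes whose products copy DNA or carry out mitosis. The choice went by name and role, but it was made with earlier results of these data known. All 44 were among the 43427 gene symbols of the deposited count table, and all 44 were among the 20118 genes with enough counts to be tested. They were read in biopsies of 4 tumors from 3 companion dogs (13 libraries of bulk RNA), to ask how the RNA of dividing cells stood in each tumor before and after local treatment and what else moved with it.

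The treatment was IMAX, a nanoparticle complex injected into the tumor. It combines paclitaxel with a cyclic dinucleotide on a carrier of polyethyleneimine and lithocholic acid. Paclitaxel is a drug that stabilizes microtubules and holds dividing cells in mitosis, and cyclic dinucleotides activate the innate immune sensor STING. All dogs received the full complex, so no component was tested alone and no untreated tumor was sampled, and each tumor's pretreatment biopsy was its only baseline. The dogs were all female (CL intact, RV and BM spayed), their tumors arose naturally, and their breeds differed.

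CL caudal and CL cranial were mammary carcinomas on the same side of dog CL, each with a pretreatment biopsy and biopsies 1 week and 1 month past the second dose. BM was the mammary carcinoma in the left caudal gland of dog BM, with a pretreatment biopsy and biopsies 1 week and 3 weeks past the second dose. RV was a soft tissue sarcoma of dog RV, with biopsies of the middle of the mass from before treatment and from 2 days past the second dose. For the biopsy at 2 days the paper diagnosed granulomatous to pyogranulomatous dermatitis with bizarre mitoses and described extensive necrosis. The large round cells in bizarre mitosis were numerous. They stained for vimentin but not for CD3, Iba-1 or cytokeratins. No tumor cells were identified with certainty in the sections of this biopsy. At 2 weeks after the third dose, 1 RV library came from the injection site and 1 from tissue adjacent to it. The libraries are called before (4 libraries), early (4 libraries) and late (5 libraries). Since the early RV biopsy was taken at 2 days and the other early biopsies at 1 week, and since the late RV biopsy followed an additional dose, tumor type, sampling time and number of doses cannot be told apart for RV. The late tissue came from the surgically removed tumor.

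A cell that divides first licenses its replication origins and makes nucleotides, then copies its DNA in S phase, and then builds a spindle and separates its chromosomes in mitosis. Genes of the S phase side are switched on mainly by E2F factors, while those of the mitosis side are switched on later by FOXM1 and MYBL2, so both sides are low in resting cells and high in tissue where many cells cycle. Activated lymphocytes, macrophages that divide locally, fibroblasts and endothelial cells of healing tissue use the same genes as carcinoma cells. In RNA from a whole biopsy, fewer dividing cells and less RNA of these genes per dividing cell cannot be told apart.

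Total counts ranged from 11622444 to 29931125 per library, and the lowest count of any member in any library was 2. Values are CPM, read counts scaled to a common library size with TMM factors, which adjusts for differences in library composition. Differences are on a log2 scale with a prior count of 2 added, so a difference of 1 is 2-fold. Levels were not compared between genes, since transcript lengths were not used. Apart from RV late, every time point of a tumor rests on 1 library, and differences within a tumor have no replicate check. No test with replication went beyond 4 tumors, and CL caudal and CL cranial shared a host.

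Some libraries stood apart from the rest or from their labels. The epithelium markers (13 genes, EPCAM and keratins among them) had a mean of 7.66, 7.04 and 7.45 log2 CPM in CL cranial and 7.12, 6.57 and 3.25 in BM, in the order before, early and late. In CL caudal the means were 3.56, 4.11 and 4.13, so this mammary tumor held much less of these RNAs than the other mammary tumors did before treatment. The sarcoma RV had 1.43, 3.21, 1.45 and 1.32, with the injection site before the adjacent site. Before treatment the paper diagnosed CL caudal as complex carcinoma, CL cranial as ductal carcinoma and BM as solid simple carcinoma. The part of these diagnoses in the values was not tested. BM at 3 weeks held much less epithelium marker RNA than BM before (EPCAM 459.8, 122 and 11.5 CPM). COL1A1, a collagen of fibroblasts and bone, stood at 186, 7310.4 and 40138 CPM in BM. The epithelium mean of BM at 3 weeks was still near that of CL caudal before and above that of RV before. The paper diagnosed the late BM tissue as carcinoma of grades II and III, with osteosarcoma features and carcinosarcoma. RV at 2 days had epidermis markers at a mean of 7.51 log2 CPM against 1.13 before, with KRT10 at 41.4, 569, 18.2 and 21.5 CPM. Gene properties also separated libraries, namely the number of neighboring genes and gene length. Genes of gene-dense regions, compared with those of gene-sparse ones, had a median level of −1.32 log2 in CL caudal before, −1.02 in CL caudal at 1 month, −1.86 in RV at 2 days and 1.53 in BM at 3 weeks, relative to the mean of the libraries. Long genes, compared with short ones, stood at 1.51 log2 in RV at 2 days and −0.70 in RV before on the same scale. In BM this value was 0.15 before and −1.10 at 3 weeks. The part of these features in the results was not tested. The members' median difference in each tumor, and that of the S phase side against the mitosis side, were also computed with gene density and gene length removed.

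In short, members were lower early in CL cranial, BM and RV and higher early in CL caudal, and late values were above the pretreatment level for 34 of 44 members in BM, stayed lower in CL cranial, and lay closer to the pretreatment level in CL caudal and RV. Of 44 members, 42 were lower early in CL cranial, 43 in BM and 33 in RV, whereas 37 were higher in CL caudal. Over all 4 tumors no member passed the test in edgeR at an adjusted p-value of 0.05 in any comparison of times.

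**Figure D1:**
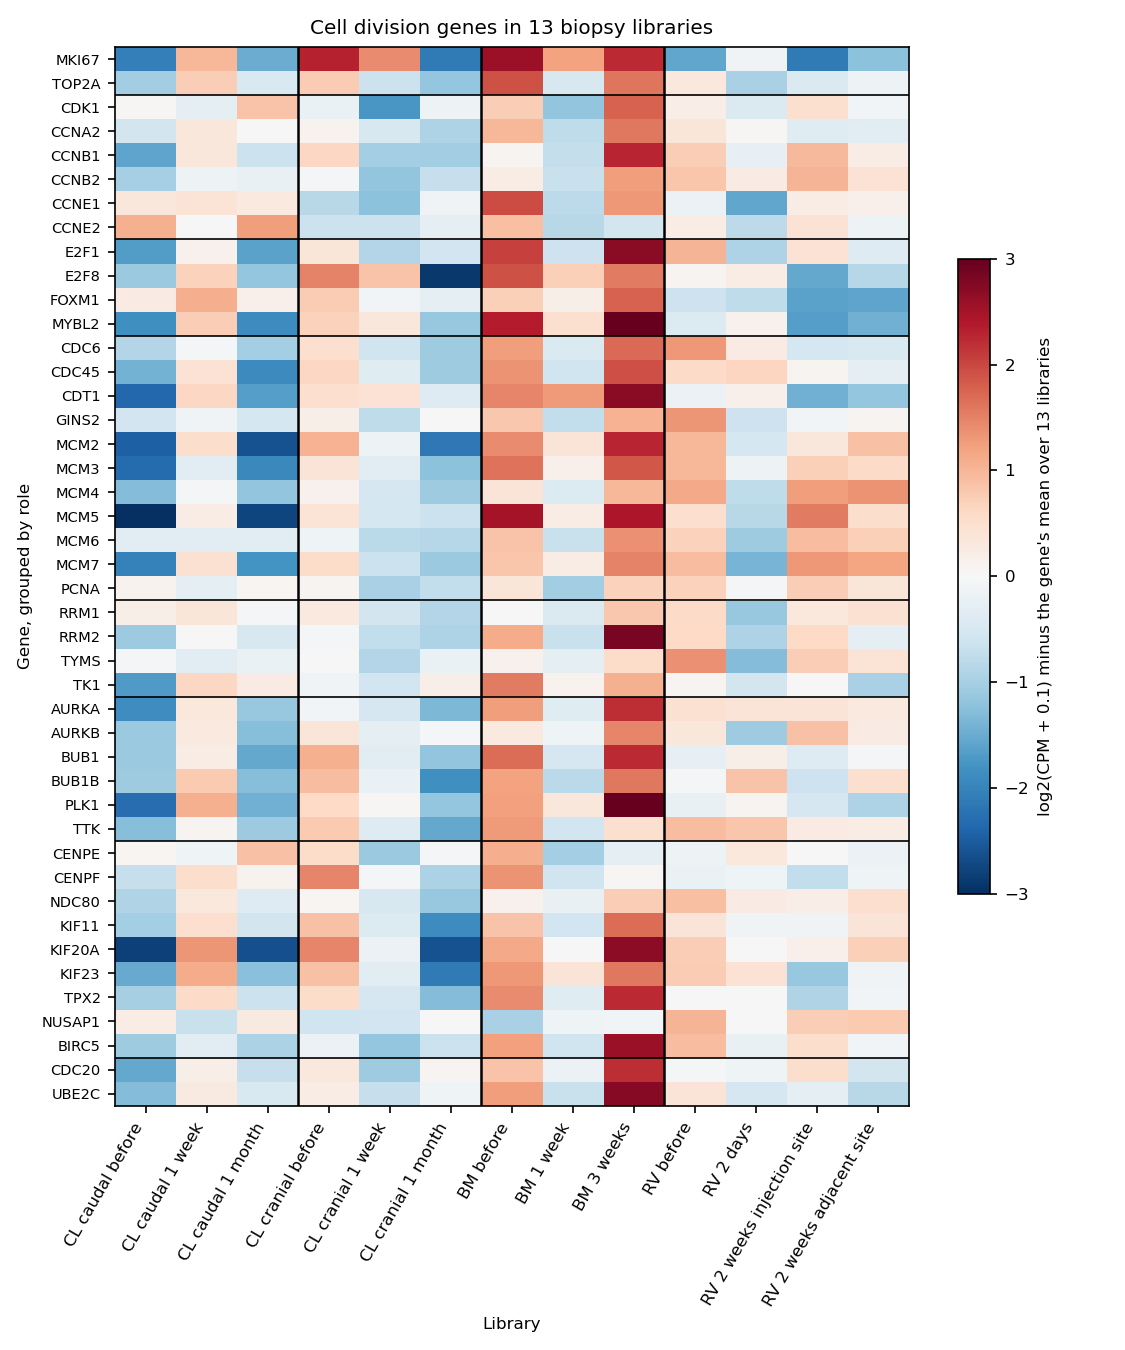
The heat map shows log2(CPM + 0.1) of each of 44 cell division genes (rows, grouped by role) in each of 13 libraries (columns, grouped by tumor), minus the gene's mean over the libraries. BM before and BM 3 weeks are mostly red, BM 1 week is mostly blue, and CL caudal shows the opposite order with its 1 week library above its other libraries.

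MKI67 encodes Ki-67, the protein that coats mitotic chromosomes and is the usual stain for proliferating cells. It stood at 2.57, 22 and 3.89 CPM in CL caudal, 54.6, 29.5 and 2.45 in CL cranial, 66.1, 25.4 and 52.2 in BM, and 3.66, 10.2, 2.44 and 4.66 in RV, in the order before, early and late, with the RV injection site before the adjacent site. Its early difference from before was 3.05 log2 in CL caudal and 1.45 in RV, against −0.89 in CL cranial and −1.38 in BM. At 1 month it had the largest difference of any member in CL cranial, −4.43 log2, with 1128 counts before and 28 counts late. Values before treatment spanned 2.57 to 66.1 CPM and overlapped those of both later groups.

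TOP2A, the topoisomerase that untangles DNA strands before chromosomes separate, stood at 34.2, 119 and 51.3 CPM in CL caudal, 119, 45.5 and 31.3 in CL cranial, 265, 50.9 and 215 in BM, and 88.4, 35.6, 52.6 and 63.1 in RV. It was lower early in all tumors but CL caudal, and the difference in BM at 1 week was −2.38 log2.

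Cyclins and CDK1 drive the cell cycle, CDK1 with the A and B cyclins at the entry into mitosis and the E cyclins at the entry into S phase. CDK1 stood at 39.7, 31.8 and 69.99 CPM in CL caudal, 33.8, 11.6 and 35.1 in CL cranial, 64.9, 16.9 and 132 in BM, and 44.9, 28.6, 54.1 and 36.4 in RV. It was lower early than before in all 4 tumors, and higher late than early in all 4 tumors. Its late values reached or exceeded the pretreatment value in CL caudal, CL cranial, BM and the RV injection site, and were below it at the RV adjacent site.

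CCNB1, the cyclin that activates CDK1 in mitosis, stood at 3.65, 14.1 and 7.09 CPM in CL caudal, 17.2, 5.51 and 5.42 in CL cranial, 11.9, 6.82 and 55.4 in BM, and 18.7, 9.43, 22 and 13.1 in RV. BM at 3 weeks had the highest value of all libraries, and its difference of 2.20 log2 from before was the largest late difference of any member in BM. CCNE1, which starts S phase, stood at 8.61, 9.13 and 8.39 CPM in CL caudal, 3.82, 2.86 and 6.38 in CL cranial, 26.7, 3.94 and 17 in BM, and 6.06, 2.25, 7.94 and 7.62 in RV. In BM at 1 week it showed the largest early difference of any member in that tumor, −2.73 log2, whereas in CL caudal its values lay within 1 CPM of each other.

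CCNE2, the other E cyclin, stood at 26.4, 12.4 and 29.9 CPM in CL caudal, 7.89, 8 and 10.3 in CL cranial, 23.5, 6.99 and 8.44 in BM, and 14.6, 7.18, 17 and 11.2 in RV. It was the member with the lowest early difference in CL caudal (−1.09 log2) and the lowest late difference in BM (−1.46). CCNA2 ranged from 7.08 CPM in CL cranial 1 month to 40.3 CPM in BM 3 weeks, and CCNB2 ranged from 4.79 CPM in CL cranial 1 week to 26.4 CPM in BM 3 weeks. Of the 6 genes in this group, 0 were higher and 6 lower early in both BM and RV, 1 was higher and 5 lower in CL cranial, and 4 were higher and 2 lower in CL caudal.

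Among the transcription factors, E2F1 switches on S phase genes and stood at 2.33, 8.43 and 2.46 CPM in CL caudal, 9.88, 4.14 and 5.16 in CL cranial, 32.2, 4.97 and 50.8 in BM, and 15.7, 4.04, 10.4 and 5.87 in RV. Its early values (4.04 to 8.43 CPM) were lower than the pretreatment value in each tumor but CL caudal. FOXM1, which switches on mitotic genes, stood at 5.2, 9.33 and 4.84 CPM in CL caudal, 7.46, 4.14 and 3.58 in CL cranial, 7.28, 4.97 and 15.2 in BM, and 2.8, 2.53, 1.36 and 1.39 in RV. Both late RV values were below the pretreatment and early values, and BM at 3 weeks was again the highest library.

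E2F8, a repressor of the E2F family that is itself an E2F target, stood at 0.837, 3.22 and 0.819 CPM in CL caudal, 5.66, 3.62 and 0.175 in CL cranial, 7.64, 3.23 and 5.88 in BM, and 2.07, 2.3, 0.61 and 1.03 in RV. It was the only member lower late than before in all 4 tumors, beside 8.04% of all tested genes that were lower late in all 4. Its value in CL cranial at 1 month rested on 2 counts, so no fold is given for it. MYBL2, a factor that acts with FOXM1, ranged from 3.21 CPM in CL caudal 1 month to 149 CPM in BM 3 weeks, and was 62.1 CPM in BM before, 17 at 1 week and 149 at 3 weeks.

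The largest group holds 11 genes of origin licensing and replication. The MCM proteins form the helicase that opens DNA, and PCNA is the clamp that holds the polymerase on it. MCM2 stood at 2.93, 24 and 2.59 CPM in CL caudal, 34.1, 14.8 and 3.67 in CL cranial, 44.1, 21.7 and 80.7 in BM, and 33, 11.4, 21 and 30.4 in RV. Both the first and last CL caudal libraries were below 3 CPM, whereas the other pretreatment libraries lay at 33.0 CPM or above.

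MCM5 stood at 1.26, 18.5 and 2.25 CPM in CL caudal, 21, 11 and 10.05 in CL cranial, 90.5, 18.5 and 85.2 in BM, and 22.5, 8.87, 46.7 and 22.9 in RV. CL caudal before treatment was the lowest of all 13 libraries, and the early difference there was 3.78 log2. In RV, MCM5 at the late injection site was the member highest relative to before, and over both late sites the difference was 0.54 log2.

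MCM6 stood at 84, 83.6 and 84.1 CPM in CL caudal, 96.2, 60.4 and 58.5 in CL cranial, 193, 66.3 and 272 in BM, and 171, 50.8, 199.95 and 172 in RV. It was lower early in all 4 tumors, with a difference of only −0.01 log2 in CL caudal. PCNA stood at 128, 96.9 and 124 CPM in CL caudal, 126, 60.4 and 70.8 in CL cranial, 153, 58 and 191 in BM, and 192, 117, 198 and 153 in RV and was also lower early in all 4 tumors.

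Other genes of the group were CDC6, CDT1, CDC45 and GINS2, which load or complete the helicase. CDC6 stood at 4.49, 8.11 and 4.09 CPM in CL caudal, 11.9, 5.51 and 3.93 in CL cranial, 20.03, 6.21 and 27.6 in BM, and 20.9, 9.99, 5.77 and 6.11 in RV, with both late RV values below the other RV values and the lowest late difference of any member in RV (−1.80 log2 over both sites). CDC45 stood at 1.67, 6.27 and 1.16 CPM in CL caudal, 7.21, 3.62 and 2.18 in CL cranial, 12, 3.02 and 18 in BM, and 6.93, 7.3, 4.95 and 3.87 in RV, and its late difference of −0.50 log2 was the lowest in CL caudal. GINS2 ranged from 4.7 CPM in CL cranial 1 week to 20.1 CPM in RV before, and CDT1 ranged from 0.419 CPM in CL caudal before to 17.2 CPM in BM 3 weeks. MCM3 ranged from 5.56 CPM in CL caudal before to 102 CPM in BM 3 weeks, MCM4 from 21.7 CPM in CL caudal before to 136 CPM in RV 2 weeks adjacent site, and MCM7 from 18.2 CPM in CL caudal before to 211 CPM in BM 3 weeks. All 11 genes were lower early in CL cranial and in BM, 9 were lower in RV, and 9 were higher in CL caudal.

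Nucleotide synthesis is represented by the ribonucleotide reductase subunits RRM1 and RRM2, thymidylate synthase (TYMS) and thymidine kinase (TK1), which supply DNA precursors. RRM2 stood at 10.3, 22.3 and 15.9 CPM in CL caudal, 21.1, 13.1 and 11.6 in CL cranial, 47.9, 13.8 and 159 in BM, and 33.5, 11.6, 33.3 and 17.9 in RV. BM at 3 weeks had the highest value of all libraries, and the difference between BM late and early, 3.52 log2, was the largest of any member.

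TYMS stood at 38.4, 31.5 and 34.3 CPM in CL caudal, 39.2, 21.2 and 34.1 in CL cranial, 42.7, 32.4 and 58 in BM, and 102, 16, 66.1 and 52.7 in RV, and was lower early in all 4 tumors. The early RV difference, −2.67 log2, was the largest of any member in that tumor, while the differences in CL caudal, CL cranial and BM were −0.29, −0.88 and −0.40 log2. TK1 stood at 5.8, 29.4 and 22.6 CPM in CL caudal, 17.7, 12.7 and 21.3 in CL cranial, 56.1, 20.3 and 39.9 in BM, and 19.99, 12.9, 19 and 9.62 in RV, and its late difference of 1.94 log2 in CL caudal was the largest of any member there and the only one of 2-fold or more. RRM1 ranged from 35 CPM in RV 2 days to 137 CPM in BM 3 weeks.

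The mitotic kinases build the spindle and hold the cell until every chromosome is attached. AURKA, which matures the spindle poles, stood at 3.71, 17.1 and 6.21 CPM in CL caudal, 13, 9.69 and 5.33 in CL cranial, 33.2, 10.6 and 64.3 in BM, and 18.9, 17.9, 18 and 16.8 in RV. In RV its 4 values lay between 16.8 and 18.9 CPM, while the 3 BM values were far apart and that at 3 weeks was the highest of all libraries. PLK1, which acts from entry into mitosis to its end, stood at 1.14, 12.7 and 2.11 CPM in CL caudal, 9, 6.11 and 2.62 in CL cranial, 14.2, 7.6 and 55.2 in BM, and 5.06, 6.29, 4.14 and 3.08 in RV. PLK1 was higher early in CL caudal by 3.37 log2 and higher late in BM by 1.95 log2.

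TTK, a kinase of the spindle checkpoint, stood at 2.21, 5.78 and 2.52 CPM in CL caudal, 9.59, 4.18 and 1.84 in CL cranial, 13.3, 3.66 and 7.64 in BM, and 10.5, 9.82, 6.51 and 6.41 in RV, with late values below pretreatment values in CL cranial, BM and RV. AURKB ranged from 5.93 CPM in CL caudal 1 month to 40.7 CPM in BM 3 weeks, BUB1 from 4.5 CPM in CL caudal 1 month to 62.5 CPM in BM 3 weeks, and BUB1B from 3.67 CPM in CL cranial 1 month to 39.9 CPM in BM 3 weeks. All 6 kinases were higher early in CL caudal and lower early in CL cranial and in BM, and in RV 3 were higher and 3 lower.

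Kinetochore, spindle and cytokinesis genes make up 9 members. KIF11, the motor that pushes spindle poles apart, stood at 12, 34.7 and 16.6 CPM in CL caudal, 45, 18.3 and 6.55 in CL cranial, 44.1, 16.3 and 78.9 in BM, and 31.9, 22.6, 22.7 and 32 in RV. KIF20A, a motor of cytokinesis, stood at 1.14, 21.6 and 1.3 CPM in CL caudal, 24, 7.6 and 1.31 in CL cranial, 19.1, 8.52 and 55.2 in BM, and 14.3, 8.7, 9.56 and 14.2 in RV. Its early difference of 4.14 log2 in CL caudal was the largest of any member in any tumor, from 19 counts before to 531 at 1 week. KIF20A overlaps the genes BRD8 and CDC23, and how reads in overlapping genes were counted is not given in the sources used here.

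CENPE, a motor at the kinetochore, stood at 31.9, 28 and 55.8 CPM in CL caudal, 44.7, 14.1 and 29.1 in CL cranial, 65.5, 15.1 and 25.4 in BM, and 27.5, 38, 30.7 and 26.9 in RV, and its early difference of −1.66 log2 was the largest in CL cranial. CENPF, a kinetochore protein of late cell cycle, stood at 20.5, 47.2 and 35.6 CPM in CL caudal, 91.6, 31.5 and 17.1 in CL cranial, 84.7, 21.8 and 33.7 in BM, and 28.6, 30.1, 19.7 and 30.2 in RV, with BM at 3 weeks far below BM before, unlike most members. BIRC5 encodes survivin, a subunit of the chromosomal passenger complex, and stood at 6.22, 10.3 and 6.69 CPM in CL caudal, 11.5, 5.83 and 8.39 in CL cranial, 30.7, 8.66 and 78.7 in BM, and 24.9, 11.2, 18.8 and 12.3 in RV. In BM its difference from before was −1.81 log2 early and 1.36 late.

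NUSAP1, a protein that bundles spindle microtubules, differed from most members. It stood at 252, 136 and 259.8 CPM in CL caudal, 143, 145 and 213 in CL cranial, 109, 196 and 205 in BM, and 436, 213, 361 and 372 in RV. It was the only member higher early in BM (0.84 log2) and differed by −0.89 log2 early in CL caudal. NUSAP1 (chromosome 30, 8652709 to 8729631 in the RefSeq annotation of UU_Cfam_GSD_1.0) overlaps the coding genes OIP5 and LOC102152665, so its counts are uncertain. In all, 11 members overlapped another coding gene. NDC80 ranged from 4.72 CPM in CL cranial 1 month to 19.7 CPM in RV before, KIF23 from 2.36 CPM in CL cranial 1 month to 32 CPM in BM 3 weeks, and TPX2 from 13.8 CPM in CL cranial 1 month to 163 CPM in BM 3 weeks.

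CDC20 and UBE2C belong to the anaphase-promoting complex system, which marks cyclins and securin for destruction so that chromosomes separate. CDC20 stood at 6.58, 21.7 and 11.9 CPM in CL caudal, 24.1, 9.17 and 20.4 in CL cranial, 34.9, 17 and 88.8 in BM, and 18.7, 17.4, 27.5 and 13 in RV. UBE2C stood at 4.91, 14.9 and 8.87 CPM in CL caudal, 14.3, 7.6 and 11.2 in CL cranial, 29.6, 7.7 and 82.7 in BM, and 16.1, 8.7, 9.97 and 6.83 in RV. Both were highest in BM at 3 weeks and higher early in CL caudal, and both were lower early in CL cranial, BM and RV, where CDC20 in RV differed by −0.10 log2 only.

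**Figure D2:**
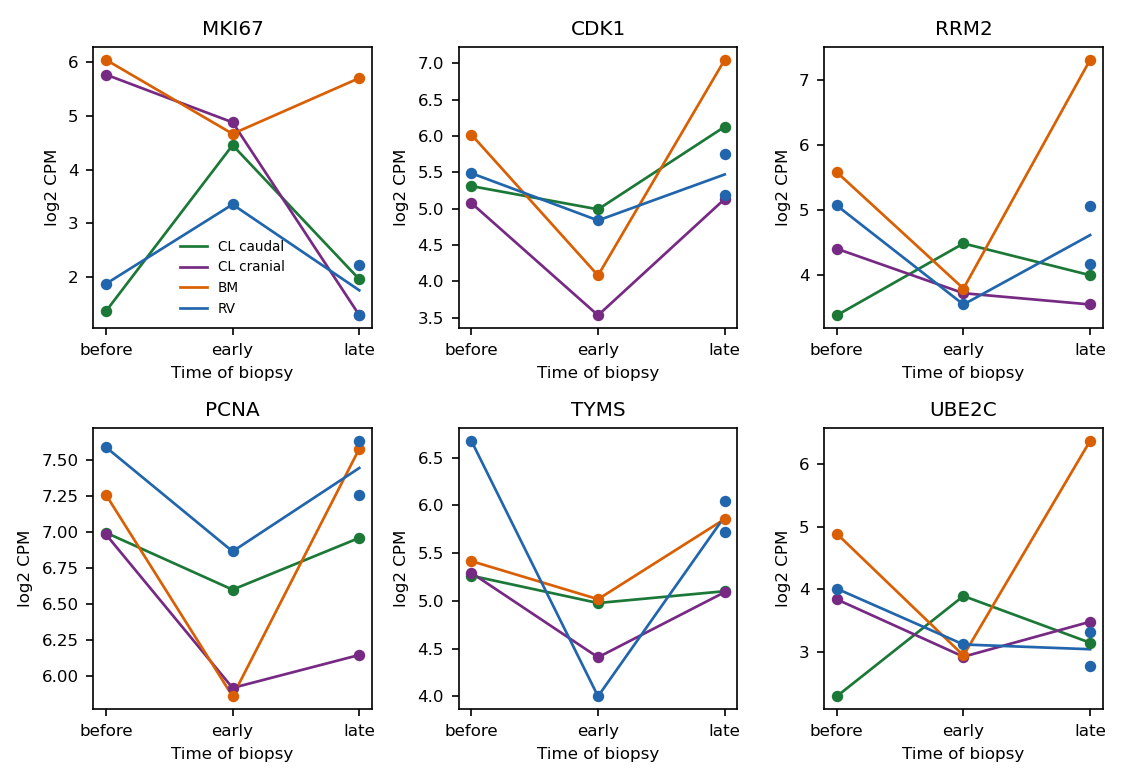
Each panel plots log2 CPM of a cell division gene against the time of biopsy, with a point per library and a line through the mean of each tumor's libraries at each time. CDK1, PCNA and TYMS are lower early than before in all 4 tumors, whereas MKI67, RRM2 and UBE2C are higher early in CL caudal.

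5 genes described above lie at separate places in the dog genome. In the RefSeq annotation of UU_Cfam_GSD_1.0, the assembly also called CanFam4.0, MKI67 lies on chromosome 28 from 37271417 to 37300625 and TOP2A on chromosome 9 from 22157897 to 22187909. CDK1 lies on chromosome 4 from 13555896 to 13576243 and PCNA on chromosome 24 from 16929896 to 16937077. TYMS lies on chromosome 7 from 67544017 to 67553794. The values are counts over whole genes, so they do not separate exons, introns or untranslated regions.

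Within CL caudal the members stood low before treatment and high at 1 week. The median difference early was 1.47 log2 beside 0.10 for all tested genes, with 37 of 44 members higher. Of the 44, 29 were higher by 2-fold or more, beside 29.2% of all tested genes, and 1 was lower by that much, beside 18.4%. The 7 members that were lower early, CDK1, CCNE2, MCM6, PCNA, TYMS, CENPE and NUSAP1, each had their lowest value of the 3 times at 1 week. At 1 month the median difference from before was 0.21 log2 beside −0.01, with 31 of 44 higher, and 1 (TK1) higher by 2-fold beside 7.97% of all tested genes. These differences rest on a pretreatment library in which gene-dense regions read low, and with gene density and gene length removed the early median relative to all genes was 1.29 in place of 1.37.

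Within CL cranial the members stood high before treatment and low at both later times. Early, the median difference was −0.93 log2 beside 0.01 for all tested genes. Of the 44, 42 were lower, all but CCNE2 and NUSAP1, and 19 were lower by 2-fold or more, beside 7.22% of all tested genes. Late, the median difference was −1.18 log2 beside −0.12, 39 were lower and 26 were lower by 2-fold or more, beside 27.8% of all tested genes. The pretreatment library was the highest of the 3 times for 39 of 44 members, beside 31.1% of all tested genes.

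Within BM the members were lowest at 1 week. The median early difference was −1.51 log2 beside −0.02 for all tested genes, 43 of 44 were lower, and 31 were lower by 2-fold or more, beside 18.4% of all tested genes. At 3 weeks the median difference from before was 0.61 log2 beside −0.07, 34 were higher, and 13 were higher by 2-fold or more, beside 21.7% of all tested genes. The 10 members that stayed below the pretreatment level were MKI67, TOP2A, CCNE1, CCNE2, MCM5, TK1, E2F8, CENPE, CENPF and TTK. Between 1 week and 3 weeks all 44 were higher, with a median of 1.98 log2, and 36 were higher by 2-fold or more, beside 14.5% of all tested genes. The library at 3 weeks held the highest of the 3 BM values for 34 of 44 members, beside 34.3% of all tested genes. It held the highest value of all 13 libraries for 28 of 44 members, a count for which the share over all genes was not taken.

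Within RV the members differed among themselves at 2 days. The median difference was −0.68 log2 beside 0.26 for all tested genes, 33 of 44 were lower, and 18 were lower by 2-fold or more, beside 25.8% of all tested genes. Relative to all genes the median was −0.94, and it was −0.62 with gene density and gene length removed and −1.65 with no filter on low counts. The 11 members above their pretreatment level were MKI67, BUB1, BUB1B, PLK1, CDC45, CDT1, E2F8, MYBL2, TPX2, CENPE and CENPF. At 2 weeks after the third dose, the median difference over both sites was −0.32 log2 beside 0.02, with 35 of 44 lower and 7 lower by 2-fold or more, beside 7.57% of all tested genes. The injection site and the adjacent site differed by a median of 0.04 log2, with 23 members higher and 21 lower at the injection site. MCM5 at these sites was 46.7 and 22.9 CPM, and CDC20 was 27.5 and 13 CPM, whereas BUB1B differed by −1.08 log2 between the injection and adjacent sites.

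**Figure D3:**
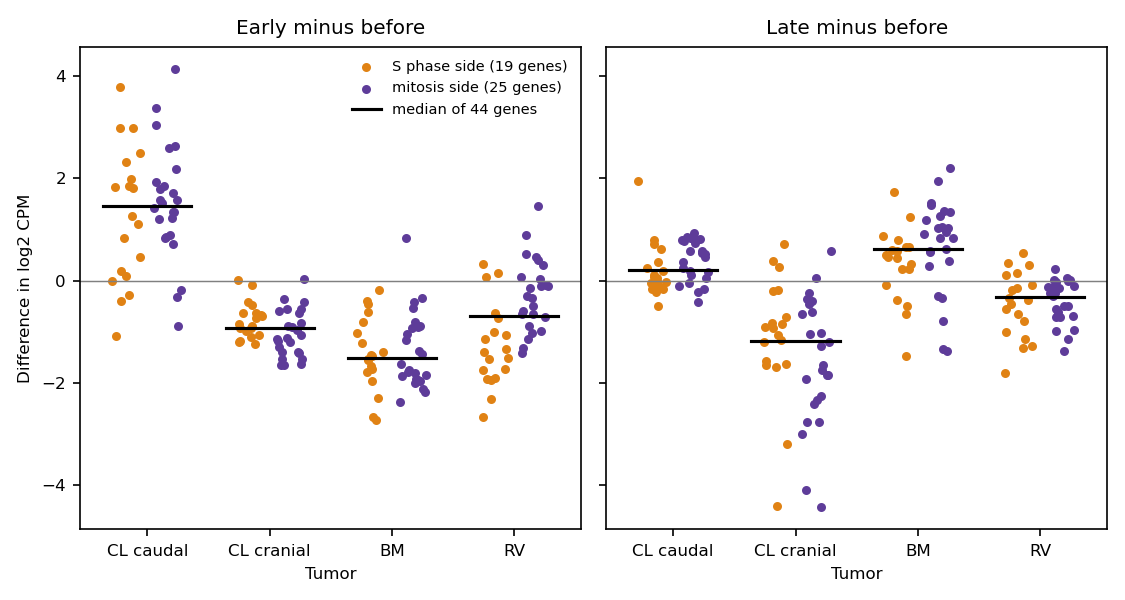
Each point is the difference in log2 CPM of a member from its own tumor's pretreatment library, early (left) and late (right), with the S phase side (19 genes) and the mitosis side (25 genes) side by side and a bar at the median of 44. Early, most points lie above 0 in CL caudal and below 0 in CL cranial and BM, and in RV the S phase side lies lower than the mitosis side.

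Across the 4 tumors, 4 of 44 members (CDK1, MCM6, PCNA and TYMS) were lower early in all of them, close to the share of all tested genes, 7.85%. None were higher in all, beside 10.8% of all tested genes. A split by tumor was more common, with 27 of 44 higher in CL caudal and lower in the other tumors, beside 7.59% of all tested genes. In CL cranial, RV and BM together, 31 of 44 were lower, beside 15.5%. Since members of a pathway vary together, these counts do not add independent evidence gene by gene.

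The test across tumors compared early with before in edgeR's quasi-likelihood model with tumor as a block. No member of 44 was called at an adjusted p-value of 0.05, beside 0.00497% of all tested genes (1 gene), and DESeq2 called 0 members, beside 4.75% of all tested genes. At an unadjusted p-value of 0.05 edgeR found 0 members higher, beside 7.7% of all tested genes, and 4 lower (PCNA, CDK1, TYMS and CCNE2), beside 3.16%. PCNA had a log2 fold change of −0.87 (SE 0.33, adjusted p = 0.389), CDK1 −1.04 (SE 0.41, adjusted p = 0.406), TYMS −1.02 (SE 0.41, adjusted p = 0.413) and CCNE2 −1.0 (SE 0.44, adjusted p = 0.450). Over the alternatives the adjusted p-value ranged from 0.0811 to 0.855 for PCNA, from 0.139 to 0.842 for CDK1, and from 0.0992 to 0.878 for TYMS.

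The members' median log2 fold change early was −0.31 beside 0.25 for all tested genes, with 34 of 44 lower. Single libraries decided this value. Without CL caudal at 1 week it was −1.01 beside 0.10 for all tested genes, with 43 lower and 14 lower at an unadjusted p-value of 0.05, beside 3.71% of all tested genes in that fit. Without CL caudal before it was −0.82 with 41 lower. Without CL cranial before it was 0.03 with 22 lower, and without BM at 1 week it was 0.03 with 21 lower. The smallest adjusted p-value among members was 0.257 without CL caudal at 1 week, so no member was called there either. Leaving out RV before gave −0.18 and leaving out tumor BM gave −0.18.

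Late against before, which shares the pretreatment libraries with the early comparison, edgeR called 0 members and 0 of all tested genes (0%), and DESeq2 called 0 members, beside 0.0348% of all tested genes. At an unadjusted p-value of 0.05 edgeR found 0 members in either direction, beside 1.28% of all tested genes higher and 2.72% lower. The 3 members with the smallest p-values were CENPF at −0.91 (SE 0.52, adjusted p = 0.973), TTK at −0.98 (SE 0.58) and E2F8 at −1.37 (SE 0.81), the last with a library at 2 counts, so its size depends on the prior count. For these 3, the adjusted p-value over the alternatives ranged from 0.541 to 1 for CENPF and from 0.596 to 1 for TTK and E2F8. The median over members was −0.21 beside −0.05, and it became −0.64 without BM at 3 weeks, −0.44 without CL caudal before, and 0.09 without tumor CL cranial.

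Late against early, which shares libraries with both other comparisons, 0 members were called, beside 0.00994% of all tested genes (2 genes). At an unadjusted p-value of 0.05 there were 3 members higher (CDK1, MCM6 and PCNA), beside 8.87% of all tested genes, and 0 lower, beside 17.7%. CDK1 had a log2 fold change of 1.46 (SE 0.40, adjusted p = 0.0690 in edgeR), MCM6 0.98 (SE 0.42, adjusted p = 0.163) and PCNA 0.72 (SE 0.32, adjusted p = 0.182). DESeq2 called 1 member of 44, CDK1, at an adjusted p-value of 0.00590, beside 23.9% of all tested genes, and over all alternatives its adjusted p-value ran up to 0.275. The median over members was 0.15 beside −0.35, and it turned to −0.37 beside −0.81 with library totals in place of TMM factors, so the members kept their place above all genes while the sign itself depended on the scaling. Without BM at 1 week it was −0.29, and without BM at 3 weeks −0.14.

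The sarcoma RV was compared with the mammary tumors through the interaction of time with the sarcoma. This does not separate tumor type from sampling time or, late, from the number of doses. The early term rests on the early RV biopsy, in which the paper did not identify tumor cells with certainty. Early, 0 members were called, beside 0% of all tested genes, and at an unadjusted p-value of 0.05 there were 0 higher, beside 16.7%, and 1 lower, beside 7.68%. It was TYMS, whose early change in RV minus that in the mammary tumors was −2.15 log2 (SE 0.69, adjusted p = 0.114 in edgeR), from 102 to 16.0 CPM in RV. The median over members was −0.57 beside 0.11 with 31 of 44 lower, and it was 0.14 beside 0.81 with library totals and 0.42 beside 0.36 without CL caudal at 1 week. Late, 0 members were called and 0 were past an unadjusted p-value of 0.05, beside 1.55% of all tested genes higher and 1.16% lower. RV had a single library before and a single one early, so its early change has no replicate of its own, and the spread came from the mammary tumors and the 2 late RV sites.

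The S phase side (19 members, from E2F1 and E cyclins to MCM genes and nucleotide synthesis) and the mitosis side (25 members) were set apart because paclitaxel acts in mitosis. In RV at 2 days the S phase side had a median difference of −1.39 log2 with 16 of 19 lower, and the mitosis side −0.31 with 17 of 25 lower. By library, the mean of the S phase side minus that of the mitosis side in RV was 0.57 before, −0.42 at 2 days, 0.64 at the injection site and 0.38 at the adjacent site, so it was lowest in the early library. Only its difference between times is read, since it sets levels of different genes against each other. The early difference of −0.99 was −1.05 without E2F1, E2F8, CCNE1 and CCNE2, −1.09 with the median change of each side, −0.53 with the median level of each side, and −0.63 with gene density and gene length removed.

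In the mammary tumors the early change of this measure was smaller, −0.26 in CL caudal, 0.26 in CL cranial and −0.05 in BM. In CL caudal it was also −0.26 with the median change of each side, but 0.19 with the median level. In BM it was 0.16 with the median change and 0.12 without E2F1, E2F8, CCNE1 and CCNE2, so its sign depended on the summary. Other genes of both processes, not members, gave the same comparison, with 28 replication genes and 41 mitosis genes. Their early difference was −0.98 in RV, −0.40 in CL caudal, 0.02 in CL cranial and 0.04 in BM. RV at 2 days was also the library with the lowest gene density value, −1.86, and the highest value of long against short genes, 1.51. No p-value is given for these scores.

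**Figure D4:**
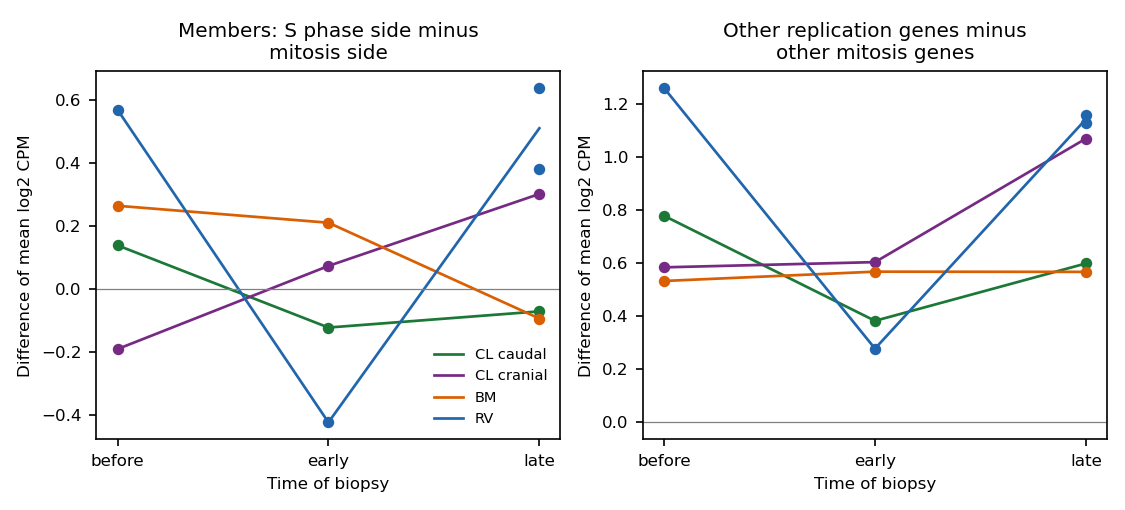
The left panel plots the mean log2 CPM of the S phase side minus that of the mitosis side in each library, and the right panel the same for other replication genes minus other mitosis genes, by time of biopsy and tumor. The RV line dips early in both panels, from 0.57 to −0.42 on the left, and the other tumors stay within a narrower band.

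Other genes of the same pathway were read from 5 lists beside the members. Of 28 other replication genes, 21 had a lower fitted value early. In edgeR 5 of them were lower at an unadjusted p-value of 0.05, beside 3.16% of all tested genes. Late against early, 18 had a higher fitted value and 10 a lower one. At that p-value 6 were higher, beside 8.87% of all tested genes, and 0 lower, beside 17.7%. RFC4, a subunit of the clamp loader that places PCNA on DNA, had an early log2 fold change of −1.20 (SE 0.40, adjusted p = 0.310 in edgeR) and 1.55 late against early (SE 0.39, adjusted p = 0.0640). Its values were 33.9, 27.2 and 40.04 CPM in CL caudal, 33, 17.7 and 41.6 in CL cranial, 61.8, 19.1 and 126 in BM, and 100.02, 23.5, 100.1 and 75.5 in RV, lower early than before in all 4 tumors. RFC3 and GINS4 had early values of −0.91 (adjusted p = 0.422) and −1.03 (adjusted p = 0.409) in edgeR, and 1.56 (adjusted p = 0.0608) and 1.45 (adjusted p = 0.0720) late against early.

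Of 41 other mitosis genes, 22 had a lower fitted value early. In edgeR 3 were lower at an unadjusted p-value of 0.05, beside 3.16% of all tested genes. Late against early, 26 had a lower fitted value and 15 a higher one, with a median of −0.30 log2. At that p-value 5 were higher, beside 8.87% of all tested genes, and 0 lower, beside 17.7%. MAD2L1, a checkpoint protein that restrains CDC20, stood at 26.6, 13.4 and 50.3 CPM in CL caudal, 21.3, 8.24 and 28.5 in CL cranial, 21.6, 11.3 and 80.5 in BM, and 41.8, 26.8, 56.7 and 33 in RV. Its late-against-early log2 fold change was 1.73 (SE 0.41, adjusted p = 0.0612 in edgeR) after −0.97 early (SE 0.41, adjusted p = 0.443). CKS2, a small partner of CDK1, had −0.98 early (adjusted p = 0.364) and 1.44 late against early (adjusted p = 0.0618), CKS1B 1.85 late against early (adjusted p = 0.0863), and SMC2, a condensin subunit, −0.65 early (adjusted p = 0.456).

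Among 21 brakes and exit genes, 11 were higher and 10 lower early. CDKN1A, the p21 inhibitor of cyclin-dependent kinases, stood at 16.2, 109.7 and 39.5 CPM in CL caudal, 29.6, 143 and 73 in CL cranial, 106, 104 and 48.2 in BM, and 52.8, 68.7, 60.1 and 37.2 in RV, higher early in CL caudal, CL cranial and RV and not in BM. Its early log2 fold change was 1.24 (SE 0.50, adjusted p = 0.420 in edgeR), while GADD45B, a stress gene, had 1.78 (adjusted p = 0.455) and CDKN2C, an inhibitor of CDK4 and CDK6, −1.11 (adjusted p = 0.345). Late against early, CDKN2C had 1.19 (adjusted p = 0.0856), BTG2, a brake on proliferation, −1.35 (adjusted p = 0.0900) and CDKN2A, which encodes p16, 1.52 (adjusted p = 0.154).

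Of 7 genes of entry into the cycle (CCND1, CCND2, CCND3, CDK2, CDK4, CDK6 and MYC), 5 were higher and 2 lower early. CDK4, the kinase that opens the cycle, stood at 163, 99.9 and 221 CPM in CL caudal, 105, 67.4 and 327 in CL cranial, 129, 127 and 426 in BM, and 481, 49.1, 589 and 317 in RV, with −1.15 early (adjusted p = 0.458 in edgeR) and 1.95 late against early (SE 0.51, adjusted p = 0.0676). CCND3, a cyclin abundant in lymphoid cells, stood at 99.96, 134 and 127 CPM in CL caudal, 69.8, 105 and 142 in CL cranial, 49.1, 112 and 98.1 in BM, and 12.6, 86.9, 16.9 and 10.3 in RV, higher early in all 4 tumors with a fitted value of 1.43 (SE 0.53, adjusted p = 0.377). Tubulins and stathmin, the targets and regulators of the microtubules that paclitaxel binds, had 7 of 11 tested genes higher and 4 lower early, with TUBA4A at 1.56 (SE 0.61, adjusted p = 0.406). TUBA1C was 1.05 late against before (adjusted p = 0.973) and 1.14 late against early (adjusted p = 0.125). In CL caudal all 11 tubulin and stathmin genes were higher early by a median of 2.11 log2, and 8 of 11 were lower in RV.

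The calls of these other genes depended on the tool. DESeq2, which called 23.9% of all tested genes late against early, gave an adjusted p-value there of 0.000542 for RFC3, 0.00107 for RFC4, 0.00124 for MAD2L1, 0.0013 for CDK4, 0.00221 for CKS2, 0.00237 for GINS4, 0.0085 for CKS1B, 0.019 for CDKN2C, 0.0246 for BTG2 and 0.041 for TUBA1C. Early against before it gave 0.0384 for RFC4, beside 4.75% of all tested genes called. In edgeR, CDK4, MAD2L1, CKS2, RFC3 and RFC4 also passed late against early without RV before, beside 3.80% of all tested genes called in that fit. Without BM at 1 week CDK4, CKS1B and RFC3 passed, beside 9.43% of all tested genes. Without the filter on low counts CDK4, MAD2L1 and CKS2 passed, beside 3.06%.

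Markers of other cells also differed between times. The leukocyte list (10 genes, PTPRC among them) had means of 5.21, 5.87 and 5.82 log2 CPM in CL caudal, 4.99, 7.26 and 6.0 in CL cranial, 4.68, 6.87 and 5.90 in BM and 4.90, 7.60, 4.71 and 4.29 in RV. Early, 8 of 10 of its genes were higher in CL caudal, 10 of 10 in CL cranial and BM, and 9 of 10 in RV, by medians of 0.80, 2.41, 2.25 and 2.99 log2. PTPRC stood at 87.1, 109 and 167 CPM in CL caudal, 53.4, 304 and 151 in CL cranial, 44.9, 109 and 42.9 in BM, and 45.5, 354, 41.6 and 44.9 in RV.

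Members' mean minus the leukocyte mean differed early from before by 0.76 log2 in CL caudal, −3.19 in CL cranial, −3.58 in BM and −3.40 in RV. Minus the epithelium mean, the early difference was 0.88 in CL caudal, −0.30 in CL cranial, −0.84 in BM and −2.48 in RV, where the epithelium mean was 1.43 log2 CPM before. In CL cranial 12 of 13 epithelium markers were lower early, with a median of −0.75 log2 beside −0.93 for the members. In BM 10 of 13 were lower, with a median of −0.49 log2 beside −1.51 for the members. At 3 weeks in BM, all 13 were lower by 2-fold or more while the members stood above their pretreatment level, so members minus epithelium differed by 4.40 log2. The share of dilution by infiltrate in these values was not tested.

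Markers of the stroma differed as well. In BM the fibroblast list (9 genes) was higher by a median of 3.55 log2 at 1 week and 4.50 at 3 weeks, with means of 6.37, 10.08 and 11.18 log2 CPM, and the endothelium list (8 genes) by 2.91 and 0.73. In RV all 9 fibroblast markers were lower at 2 days, with a median of −2.82 log2, and the members minus the fibroblast mean were 2.04 higher, whereas neutrophil markers had a mean of 2.47, 9.27, 2.30 and 1.90 log2 CPM. Neutrophils no longer divide, and their part in the lower levels was not tested. The macrophage list was higher early by medians of 1.46 log2 in CL caudal, 1.87 in CL cranial, 3.28 in BM and 2.28 in RV. All 9 of its genes were higher in CL cranial and BM, but 6 were higher and 3 lower in both CL caudal and RV. In CL caudal the neutrophil list was lower early, with a median of −2.16 log2 (4 genes lower, 2 higher), and the endothelium list was higher by 1.77.

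Lymphocyte lists differed most in CL cranial, where T cell markers (8 genes) were higher early by a median of 3.18 log2 and B cell markers (7 genes) by 2.02, while the members were lower. In the other tumors the early T cell median was 1.29 in CL caudal, 1.34 in BM and 0.35 in RV, and the B cell median 1.21, 0.84 and 0.39. Of the T cell markers, 6 were higher and 2 lower in both CL caudal and RV. Of the B cell markers, 1 was lower in BM and 2 in RV. Plasma cell markers (5 genes) had early medians of 0.38 log2 in CL caudal, 0.36 in CL cranial, 2.45 in BM and 2.05 in RV, but in CL caudal their mean difference was −0.68, with 3 higher and 2 lower. The early medians of bone markers were −0.97, 1.02, 0.71 and 1.11 log2 and those of skeletal muscle 1.99, −1.25, −1.31 and 0.22, in the same order of tumors. Epidermis markers had early medians of 1.51 log2 in CL caudal, 0.62 in CL cranial, −4.62 in BM and 6.85 in RV. Of these markers, 10 of 11 were lower early in BM and 11 of 11 higher early in RV. The cells that this RNA came from were not tested.

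**Figure D5:**
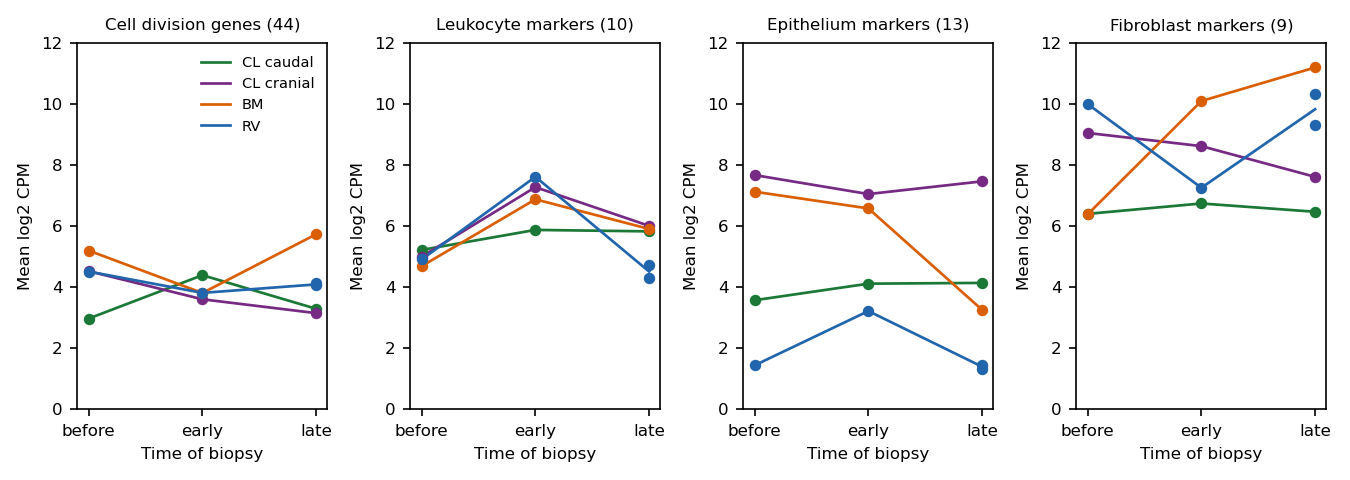
Panels plot, by time of biopsy and tumor, the mean log2 CPM of 44 cell division genes and of leukocyte, epithelium and fibroblast markers, with a point per library and a line through each tumor's means. Leukocyte markers are higher early in all 4 tumors, while the cell division genes are higher early in CL caudal and lower in the other tumors.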

How the data were processed

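RNA was isolated from tumor biopsies with a Qiagen AllPrep kit and sequenced as strand-specific libraries. The authors used Strand NGS to align reads to the CanFam4.0 assembly, and the deposited values are raw counts for each gene symbol in 13 libraries. The counting rule and annotation release are not given in the sources used here, so values of overlapping genes and of near-identical copies are uncertain. Total counts ran from 11622444 to 29931125 per library. A count floor of 3 was set, which covers counting error only, and it was not used to filter genes.

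Genes were filtered with filterByExpr (minimum count 10), which kept 20118 of 43427, and scaled by TMM. The model with tumor and time over all 13 libraries was fitted in edgeR 4.0.16 (R 4.3.3, limma 3.58.1), with glmQLFit (robust) and glmQLFTest, and the Benjamini-Hochberg adjustment ran over all tested genes with a threshold of 0.05. The common biological coefficient of variation was 0.672 with 7 residual degrees of freedom. Interaction terms compared the sarcoma with the mammary tumors. The test was run on simulated data before use. For early against before with 20118 genes, of which 200 were changed, it recovered 0 at a log2 change of 2 and the deposited spread, 122 at a log2 change of 4 with 2 false calls, and 197 at a log2 change of 2 and a coefficient of variation of 0.2 with 11 false calls.

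The pairing comes from the tumor, since each tumor was biopsied repeatedly. Deviations from the time means had a mean correlation of 0.23 between before and early libraries of the same tumor (−0.07 for others), 0.59 between before and late (−0.20), and 0.19 between early and late (−0.07). No library was a copy of another (over 78 pairs the smallest chi-square divided by its degrees of freedom was 44.5). P-values measure the spread between these biopsies, and the CL tumors share a host.

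Members named with a value in every library included a set written down for their roles. They also included the 3 with the smallest p-value per comparison of times and those with the largest rise and fall in each tumor. From each list of other genes, up to 3 with the smallest p-value per comparison were named, among those at an unadjusted p-value of 0.05. Of these, only RFC4, MAD2L1, CDKN1A, CDK4 and CCND3 were given with a value in every library. CCNE2 was in addition named because it passed an unadjusted p-value of 0.05. The members and lists were chosen with earlier results of these data known. Positions came from the RefSeq annotation of UU_Cfam_GSD_1.0, which held 98.0% of the symbols. Member sequences were not used here. Gene density was the number of coding genes within 500 kb.

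Alternatives were DESeq2 1.42.0, median-of-ratios factors, library totals, no filter, no block, dog as block, 2 time points only, prior counts of 0.5 and 5, late RV sites summed or alone, and each library and tumor left out. Removal of gene density and length, the S phase comparison in other genes, and its median of changes were chosen after seeing the data. Further steps used Python 3.11.15, numpy 2.4.6, pandas 2.3.3 and matplotlib 3.10.9.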

Additional observations from a re-analysis of the deposited data

Results flagged for a closer look

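Among the late libraries, BM at 3 weeks stood apart from the other 4 in the mean log2 CPM of 3 role groups. Chromosome and proliferation marks (MKI67 and TOP2A) were at 6.73 with the next library at 4.12, transcription factors (E2F1, E2F8, FOXM1 and MYBL2) at 4.85 with the next at 1.37, and the anaphase-promoting complex genes (CDC20 and UBE2C) at 6.42 with the next at 4.06. The same library stood apart in 4 single genes, MKI67 at 5.71 log2 CPM (next 2.25), CCNE1 at 4.10 (next 3.09), PLK1 at 5.79 (next 2.08) and UBE2C at 6.37 (next 3.50). These groups and genes share members and are not separate signs. This was also the library with epithelium markers at a mean of 3.25 log2 CPM, fibroblast markers at 11.2 and the highest gene density value, 1.53, whose part was not tested.

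Among the libraries before treatment, MCM2 in CL caudal stood apart at 1.60 log2 CPM, with the next library at 5.05. In all, 90 groups of libraries were examined, where chance gives about 1 in 20 (4.5), and 8 held a library that far from the rest.

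The late median difference of the transcription factors was 0.85 log2 in BM and below 0 in both CL tumors, −0.03 in CL caudal and −1.44 in CL cranial. This was 1 of 66 comparisons of lists between dogs, each tumor has 1 library per time, and the difference was not tested.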

How the results depend on the processing

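Relative to the median of all genes, the within-tumor medians of the members kept their direction under every alternative run. The members' medians taken alone, which shift with the scaling, were not compared in this way. On the relative measure, the early range was 1.29 to 1.51 log2 in CL caudal, −1.07 to −0.87 in CL cranial, −1.57 to −1.37 in BM and −1.65 to −0.62 in RV. The late range was 0.20 to 0.33, −1.25 to −1.05, 0.57 to 0.68 and −0.46 to −0.31, in the same order. The early S phase minus mitosis difference in RV ranged from −1.09, with the median change of each side, to −0.53, with the median level. Elsewhere this measure was less stable, with 0.034 in BM late for other genes (−0.36 for the members) and 0.30 in CL caudal late with median levels (−0.21 with mean levels, −0.47 with median changes).

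Calls over all genes depended on the tool and filter. Early against before, edgeR called 1 gene, 0 with median-of-ratios factors, 4 with library totals, 17 with no filter, 0 with dog as block, 0 with libraries of 2 time points only, 0 with late RV sites summed and 956 in DESeq2. Late against before, edgeR called 0 and DESeq2 7. Late against early, edgeR called 2, 10 with library totals, 1081 with no filter, 0 with dog as block, 0 with libraries of 2 time points only, 0 with late RV sites summed and 4809 in DESeq2, which called 1 member. Without a filter, the early sarcoma interaction called 1505 genes and the members' median relative to all genes was −2.02 in place of −0.68.

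With no replicate block, so without the pairing by tumor, 0 genes were called early and 0 late against early, and the members' median was −0.60 early with 42 of 44 lower, −0.04 late against before, and 0.70 late against early with 38 higher. No member was called with or without the block.

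When libraries or tumors were left out one at a time, members called were 0 to 0 in all comparisons. Genes called ranged from 0 to 12 early against before, 0 to 0 late against before, 0 to 2000 late against early, 0 to 1921 in the early sarcoma interaction and 0 to 0 in the late one. The members' median relative to all genes ranged from −1.16 to −0.24 early, −0.55 to 0.12 late against before, 0.05 to 1.03 late against early, −1.35 to 0.12 in the early sarcoma interaction and −1.02 to 0.42 in the late one. The interactions could not be fitted without tumor RV, RV before or RV at 2 days. The causes of these shifts were not tested. In simulated data with this spread, 0 of 200 genes changed by 2 on the log2 scale were called early against before.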
